A study of Mus musculus with 6 samples.

Results

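Genes of prostaglandin synthesis, breakdown and reception were followed in mouse gastrocnemius muscle, 10 of the 49315 genes in the count table. They were taken by gene symbol: the cyclooxygenases Ptgs1 and Ptgs2, the terminal synthases Ptges, Ptges2, Ptgds, Hpgds and Ptgis, the inactivating enzyme Hpgd, and the receptors Ptger4 and Ptgfr. The set was selected on measured values, being chosen by the lower Ptgs2 counts already seen in CAAHR among the same 6 libraries, so the differences of these 10 genes between the groups are given as a description. No p-value is printed for them, and how many passed the threshold of the fit over all genes is stated only beside the share of all genes that did. The muscles came from male C57BL6J mice that received intramuscular AAV9 at 5 months of age and were harvested 5 months later. The virus was AAV9-HSA-CAAHR in 3 muscles (replicates 31, 34 and 36, CAAHR hereafter) and AAV9-HSA-GFP in 3 muscles (replicates 42, 43 and 46, GFP hereafter). CAAHR is a mouse aryl hydrocarbon receptor (AHR) without its ligand-binding domain, which makes this transcription factor active without a ligand, and GFP is a green fluorescent protein. The human skeletal actin (HSA) promoter that drove both is active in muscle fibres. Control muscles also carried virus and a foreign protein, and uninjected muscle was not analysed here, so a level lower in CAAHR and one raised in GFP cannot be told apart. In whole muscle, fewer cells of a type and less RNA per cell cannot be told apart either.

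Prostaglandins are short-lived lipid signals made from arachidonic acid, which phospholipases free from membranes. PTGS1 and PTGS2 (COX-1 and COX-2, the targets of aspirin-like drugs) turn arachidonic acid into prostaglandin H2, terminal synthases turn that into prostaglandin E2, D2, F2α, prostacyclin or thromboxane, and each product acts on its own G protein-coupled receptors before HPGD and related enzymes inactivate it. PTGS1 is made steadily in many tissues, whereas PTGS2 is an inducible enzyme of inflammation, and prostaglandin E2 is known to act on muscle stem cells during regeneration.

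Total counts per library were between 43432994 and 58825752. Ahr was at 9.97, 22.8 and 17.3 CPM (the deposited counts relative to the library total, after TMM scaling) in CAAHR replicates 31, 34 and 36 against 2.47, 2.55 and 1.87 CPM in GFP replicates 42, 43 and 46, and the AHR target Cyp1a1 was at 1231, 1680 and 1517 CPM against 6.78, 7.74 and 5.85 CPM, so both genes followed the labels, although delivered and endogenous Ahr are counted together. The 8 muscle fibre markers summed to between 125327 and 165148 CPM in CAAHR and between 197510 and 198099 CPM in GFP. Of these, 6 had a negative log2 fold change (CAAHR over GFP), Acta1 and Ckm among them, and 2 a positive one. The 2 were Mb (means of 2219 CPM in CAAHR and 1086 CPM in GFP) and Myh1 (4486 and 2248 CPM), each with overlapping groups. The largest part of each sum was Myh4 (means of 71037 and 88135 CPM), whose groups also overlapped. CAAHR replicate 34 stood apart from the other CAAHR libraries, with a summed level of 9 slow-fibre markers of 649 CPM beside 2783 CPM in replicate 31 and 2518 CPM in replicate 36. In GFP this sum was between 228 and 461 CPM.

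Ptgs2 was the member with the largest difference. It was at 0.257 CPM in CAAHR replicate 31, 0.298 CPM in replicate 34 and 0.344 CPM in replicate 36, and at 3.38 CPM in GFP replicate 42, 7.26 CPM in replicate 43 and 5.25 CPM in replicate 46. The groups were far apart and each CAAHR library was under every GFP library. These levels came from 13, 17 and 21 counts in CAAHR and 163, 302 and 278 counts in GFP, so the low group was detected but thinly covered. The means were 0.300 ± 0.0438 CPM in CAAHR and 5.30 ± 1.94 CPM in GFP (SD, n = 3), a level 17.4-fold lower in CAAHR, with a log2 fold change of -4.12 ± 0.32 (SE, 95% interval -4.85 to -3.40). Of the 15847 genes tested, 24 had a lower log2 fold change. Leaving out any 1 library gave values between -4.36 and -3.83.

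Ptgs2 (ENSMUSG00000032487) lies on chromosome 1 from 150100031 to 150108227 of GRCm38, plus strand. Ptgs1 (ENSMUSG00000047250) lies on chromosome 2 from 36230426 to 36252272, plus strand, and Ptger4 (ENSMUSG00000039942), the EP4 receptor for prostaglandin E2, on chromosome 15 from 5206661 to 5244187, minus strand. The 250 bases before the annotated start of these 3 genes are printed because the results turn on them: the inducible oxygenase, its steady counterpart and the member receptor with the larger difference. The sequences are from RefSeq on GRCm38.p6, written 5′ to 3′ on the strand of the gene, at chr1:150099781-150100030 for Ptgs2, chr2:36230176-36230425 for Ptgs1 and chr15:5244188-5244437 for Ptger4. Capitals mark matches to GCGTG, the core bound by AHR with ARNT, and TTGCGCAA, the palindrome bound by C/EBP factors.

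Ptgs2: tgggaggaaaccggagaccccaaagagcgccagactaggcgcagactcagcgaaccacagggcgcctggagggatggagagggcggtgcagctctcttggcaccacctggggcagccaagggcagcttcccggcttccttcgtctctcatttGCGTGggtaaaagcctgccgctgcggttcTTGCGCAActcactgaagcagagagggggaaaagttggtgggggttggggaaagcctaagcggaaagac

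Ptgs1: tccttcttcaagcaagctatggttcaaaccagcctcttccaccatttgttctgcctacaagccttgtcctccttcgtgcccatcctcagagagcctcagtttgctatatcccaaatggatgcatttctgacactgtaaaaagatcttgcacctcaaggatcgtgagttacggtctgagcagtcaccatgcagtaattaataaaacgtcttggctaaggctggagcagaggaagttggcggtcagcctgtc

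Ptger4: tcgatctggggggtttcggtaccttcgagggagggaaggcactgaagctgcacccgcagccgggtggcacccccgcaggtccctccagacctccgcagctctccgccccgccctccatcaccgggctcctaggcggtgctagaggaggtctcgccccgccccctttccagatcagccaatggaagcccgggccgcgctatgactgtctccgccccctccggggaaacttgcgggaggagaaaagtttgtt

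In the Ptgs2 window GCGTG stood at -98 to -94 and TTGCGCAA at -69 to -62 from the start, on the strand of the gene, and the matches did not overlap. The windows of Ptgs1 and Ptger4 held neither, nor the E-box CACGTG. Of the 10 genes, 9 had such a window, all but Ptgis. GCGTG, searched on both strands, was in 4 of the 9 (Hpgd, Ptges, Ptges2 and Ptgs2) and in 28.2% of all 32851 windows of this length. TTGCGCAA was in Ptgs2 alone among the 9 and in 0.164% of all windows, and CACGTG was in Ptges2 alone and in 6.02% of all windows. The motifs were picked with the sequences and the differences in view, and a match is a description of the letters only. Bases after the start and those further upstream were not searched, so a motif missing from a window may lie outside it. G and C made up 61.6% of the Ptgs2 window, 66.8% of that of Ptger4 and 48% of that of Ptgs1.

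Ptgs1, the other cyclooxygenase, differed far less. Its levels were 1.86, 1.51 and 1.66 CPM in CAAHR replicates 31, 34 and 36 and 2.38, 2.04 and 1.96 CPM in GFP replicates 42, 43 and 46. Every CAAHR library was under every GFP library, but the lowest GFP and highest CAAHR libraries were close. The log2 fold change was -0.35 ± 0.20 (95% interval -0.79 to 0.09), from means of 1.67 ± 0.177 CPM and 2.13 ± 0.223 CPM.

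Per kilobase of exon, which lets the levels of different genes be set side by side, the pair of cyclooxygenases changed order between the groups. Ptgs2 made up 54.6%, 75.1% and 69.4% of their summed CPM per kilobase in GFP replicates 42, 43 and 46 (66.4 ± 10.6%), and 10.5%, 14.4% and 15.0% in CAAHR replicates 31, 34 and 36 (13.3 ± 2.43%). Thus Ptgs2 was the more abundant of the pair in each GFP library and the less abundant in each CAAHR library. The sum itself was 1.70 ± 0.383 CPM per kilobase in GFP and 0.496 ± 0.0414 in CAAHR.

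**Figure D1:**
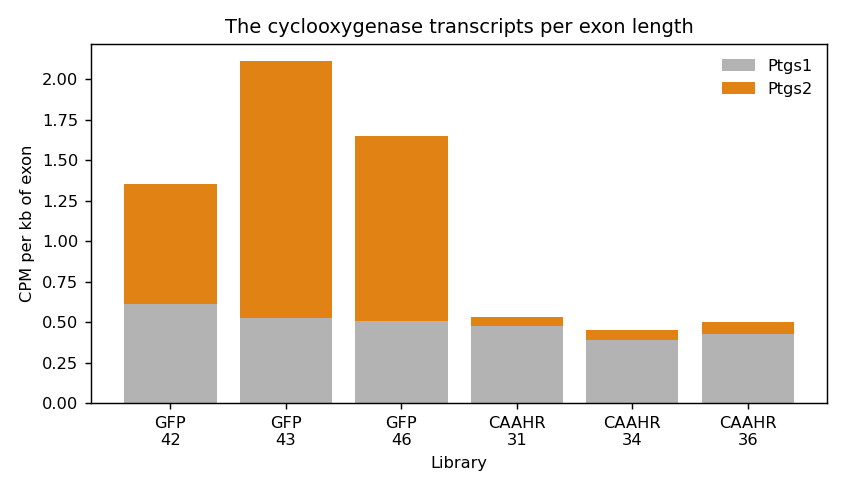
Stacked bars show Ptgs1 (grey) and Ptgs2 (orange) in CPM per kilobase of exon for each of the 3 GFP and 3 CAAHR libraries. Ptgs2 takes 54.6% to 75.1% of the bar in GFP and 10.5% to 15.0% in CAAHR, while the Ptgs1 part stays between 0.388 and 0.614 CPM per kilobase in the 6 libraries.

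The terminal synthases came next. Ptges, the inducible prostaglandin E synthase that is often raised together with PTGS2, was at 1.48, 1.02 and 1.33 CPM in CAAHR replicates 31, 34 and 36 and at 1.74, 1.49 and 2.34 CPM in GFP replicates 42, 43 and 46. The groups did not overlap, although CAAHR replicate 31 at 1.48 CPM and GFP replicate 43 at 1.49 CPM were nearly level. The log2 fold change was -0.55 ± 0.25 (95% interval -1.11 to 0.02). Ptges2, named as a membrane-associated prostaglandin E synthase, was the most abundant member, at 24.4, 21.3 and 25.6 CPM in CAAHR and 22.9, 27.0 and 31.3 CPM in GFP. Its groups overlapped, with a log2 fold change of -0.19 ± 0.13 (95% interval -0.47 to 0.10).

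The synthases of prostaglandin D2 were scarce. Ptgds, the lipocalin-type enzyme, had 20, 6 and 5 counts in CAAHR and 9, 25 and 15 counts in GFP, that is 0.396, 0.105 and 0.0820 CPM against 0.187, 0.601 and 0.283 CPM. Hpgds, the haematopoietic enzyme found in mast cells and some macrophages and T cells, was at 0.494, 0.175 and 0.476 CPM in CAAHR and 0.414, 0.745 and 0.510 CPM in GFP. Both sets of values overlapped widely between the groups. The log2 fold changes were -0.89 ± 0.67 (95% interval -2.39 to 0.62) for Ptgds and -0.54 ± 0.44 (95% interval -1.52 to 0.45) for Hpgds, so at these counts a difference of several-fold in Ptgds could not be told from none. The Ptgds value was -1.89 without CAAHR replicate 31 and -0.32 without GFP replicate 43, and that of Hpgds -0.20 without CAAHR replicate 34.

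Ptgis, the prostacyclin synthase of vessel walls and fibroblasts, was at 3.20, 0.823 and 4.48 CPM in CAAHR replicates 31, 34 and 36 and at 2.40, 3.82 and 2.74 CPM in GFP replicates 42, 43 and 46. CAAHR replicate 34 was under all the other libraries and CAAHR replicate 36 above them. The log2 fold change was -0.07 ± 0.56 (95% interval -1.41 to 1.27). It was 0.36 without CAAHR replicate 34 and 0.14 without GFP replicate 43. In CAAHR replicate 34 the 8 fibroblast markers summed to 386 CPM, against 673 and 753 CPM in the other CAAHR libraries and 576 to 713 CPM in GFP, and the part this played in the Ptgis value was not tested.

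Hpgd, the dehydrogenase that inactivates prostaglandin E2 and F2α, was at 1.25, 0.718 and 1.10 CPM in CAAHR replicates 31, 34 and 36 and at 4.21, 1.20 and 1.21 CPM in GFP replicates 42, 43 and 46. One library, GFP replicate 42, set the difference, since the other GFP values lay within the CAAHR range. With all libraries the log2 fold change was -1.11 ± 0.52 (95% interval -2.33 to 0.10), and without GFP replicate 42 it was -0.24. GFP replicate 42 also had the highest summed level of the 8 adipocyte markers (259 CPM, others 108 to 220 CPM), with Adipoq at 19.0 CPM there and between 0.560 and 10.9 CPM elsewhere, and the part this played in the Hpgd value was not tested.

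The receptors behaved differently from each other. Ptger4 was at 1.25, 1.45 and 1.57 CPM in CAAHR replicates 31, 34 and 36 and at 2.61, 3.51 and 4.04 CPM in GFP replicates 42, 43 and 46, with no overlap. Its means were 1.42 ± 0.166 CPM and 3.39 ± 0.723 CPM, a level 2.37-fold lower in CAAHR, and the log2 fold change was -1.25 ± 0.22 (95% interval -1.73 to -0.76). Leaving out any 1 library kept it between -1.40 and -1.10. Ptgfr, the receptor for prostaglandin F2α, was at 0.989, 0.630 and 1.10 CPM in CAAHR and 0.891, 0.721 and 0.812 CPM in GFP. The GFP values of Ptgfr lay inside the CAAHR range, and its log2 fold change of 0.16 ± 0.29 (95% interval -0.50 to 0.82) was the only positive one among the 10 genes. Exons of Ptger4 overlap those of Ttc33, which was at 31.6 to 39.2 CPM with overlapping groups, and of the antisense gene Gm15937, which had at most 1 count in a library. Counting was by strand only if the library was stranded, which was not stated, so reads in these overlaps cannot be assigned with certainty.

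**Figure D2:**
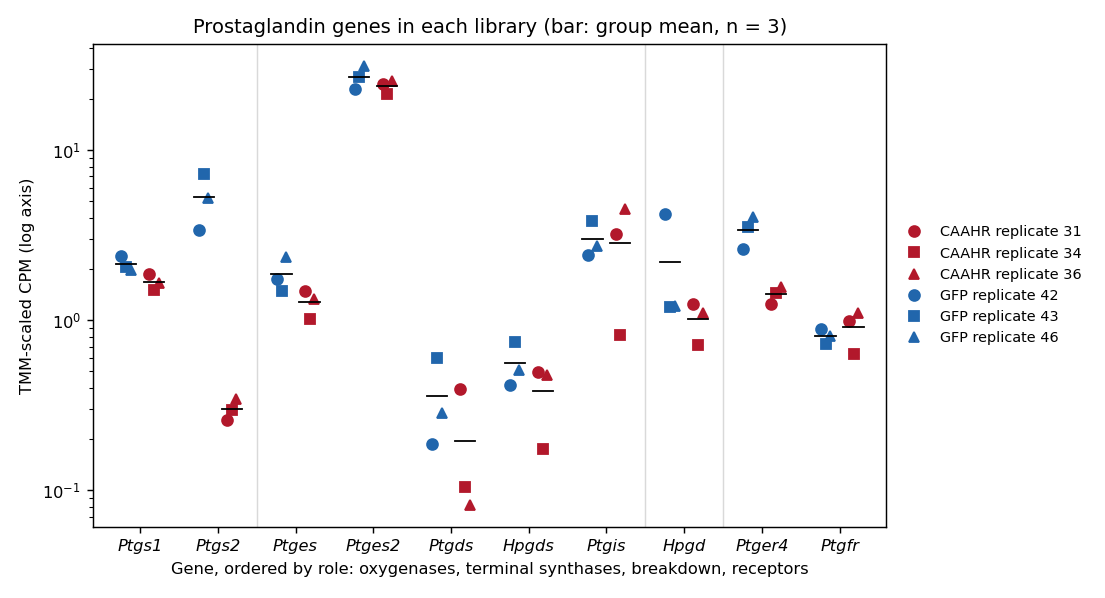
Each point is 1 library's TMM-scaled CPM (log axis) for the 10 genes, ordered by role from oxygenases to receptors, with GFP in blue, CAAHR in red and bars at the group means (n = 3). Ptgs2 and Ptger4 show the clear gaps, at 0.257 to 0.344 CPM against 3.38 to 7.26 CPM and at 1.25 to 1.57 CPM against 2.61 to 4.04 CPM, and CAAHR replicate 34 is the low red point for Hpgds at 0.175 CPM and Ptgis at 0.823 CPM.

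All 10 genes passed the filter on low counts, and 9 had a negative log2 fold change, with a median of -0.54 beside a median of 0.01 over all 15847 genes tested. An adjusted p under 0.05 was reached by 2 of the 10, Ptgs2 and Ptger4, both lower in CAAHR, where 7.60% of all tested genes reached it in either direction, 4.57% as lower and 3.04% as higher. The groups did not overlap, with CAAHR the lower, for 4 of the 10 (Ptgs2, Ptger4, Ptgs1 and Ptges), where 14.9% of all tested genes had this pattern. These counts come from the contrast around which the genes were chosen, and nothing is read from them.

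The order of levels per kilobase of exon showed the same shift. In GFP the order ran from Ptges2 (5.35 ± 0.823 CPM per kilobase) through Hpgd (1.31 ± 1.03), Ptgis (1.16 ± 0.289) and Ptgs2 (1.16 ± 0.424) to Ptgs1 (0.548 ± 0.0574), Ptger4 (0.509 ± 0.109) and Ptges (0.472 ± 0.111), and then Ptgds (0.216 ± 0.131), Ptgfr (0.119 ± 0.0126) and Hpgds (0.0866 ± 0.0265). Ptges2 stood above all the others, and within each of the next steps (Hpgd, Ptgis and Ptgs2, then Ptgs1, Ptger4 and Ptges, then Ptgds with Ptgfr and Ptgfr with Hpgds) neighbouring genes overlapped. In CAAHR the order was Ptges2 (4.70 ± 0.438), Ptgis (1.10 ± 0.723), Hpgd (0.607 ± 0.162), Ptgs1 (0.431 ± 0.0457), Ptges (0.325 ± 0.0607), Ptger4 (0.214 ± 0.0250), Ptgfr (0.134 ± 0.0362), Ptgds (0.118 ± 0.106), Ptgs2 (0.0654 ± 0.00955) and Hpgds (0.0594 ± 0.0279). Ptgs2 moved from place 4 to place 9 of 10, where its values overlapped those of Ptgds and Hpgds, and no other gene moved by more than 2 places. Lengths are of all annotated exons together, so a gene whose muscle transcript is short is understated.

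The rest of the pathway was read from 5 lists of other eicosanoid genes, of which 64 were in the table and 41 were tested. Of these 41, 7 passed an adjusted p of 0.05 in the edgeR quasi-likelihood test (17.1%, against the 7.60% of all tested genes given above), 3 higher and 4 lower in CAAHR, with a median log2 fold change of -0.09. An unadjusted p under 0.05 was reached by 13 of the 41, and by 3781 of all 15847 genes tested. These lists too were drawn up with earlier results known. The slow-fibre covariate was built from the mean log2 CPM of the 9 slow-fibre markers in each library. This score was 7.49, 5.39 and 7.39 in CAAHR replicates 31, 34 and 36 and 3.83, 4.30 and 4.83 in GFP replicates 42, 43 and 46. It did not overlap between the groups, so in fits with it fibre type and virus cannot be told apart. With this covariate, 1 of the 7 (Pla2g7) was still called.

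Upstream of the cyclooxygenases, 13 of 24 phospholipase and lipase genes were tested, of which 1 was higher and 1 lower in CAAHR (median log2 fold change 0.07). Pla2g7 makes a secreted enzyme that hydrolyses platelet-activating factor and oxidised phospholipids. It was at 289, 418 and 299 CPM in CAAHR and 93.3, 112 and 74.3 CPM in GFP (log2 fold change 1.85 ± 0.19, adjusted p = 0.00118), and was called without each library in turn. Dagla, which makes the endocannabinoid precursor of arachidonic acid, was at 11.3, 14.8 and 9.74 CPM in CAAHR and 18.5, 21.0 and 17.9 CPM in GFP (-0.68 ± 0.15, adjusted p = 0.0288). The Dagla call was kept in only 1 of the 6 fits without a library, that without CAAHR replicate 34, and its log2 fold change lay between -0.87 and -0.56 in the 6. With the slow-fibre score as a covariate it was -0.18 (adjusted p = 0.723). The abundant members Pla2g16, Pla2g12a, Mgll, Pla2g4e and Pla2g6 did not pass, with log2 fold changes of -0.21 ± 0.15, 0.81 ± 0.31, 0.52 ± 0.25, 0.07 ± 0.19 and -0.23 ± 0.09. Pla2g4a, the cytosolic phospholipase best known for feeding the cyclooxygenases, was scarce, at 0.756 ± 0.289 CPM in CAAHR and 0.541 ± 0.174 CPM in GFP (0.49 ± 0.39, adjusted p = 0.496, named after its values were seen).

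None of the 10 other prostanoid synthases tested passed, and none reached an unadjusted p under 0.05 (median log2 fold change -0.12). Akr1b3, an aldose reductase that can also form prostaglandin F2α, was at 135 ± 17.9 CPM in CAAHR and 139 ± 5.63 CPM in GFP. Fam213b, a prostamide and prostaglandin F synthase, was at 97.8 ± 17.4 CPM and 111 ± 10.6 CPM, and Ptges3, the cytosolic prostaglandin E synthase also known as the p23 co-chaperone, at 58.2 ± 5.30 CPM and 52.5 ± 4.38 CPM. For each of these the groups overlapped, and the log2 fold changes were -0.04 ± 0.11, -0.19 ± 0.14 and 0.15 ± 0.10.

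Among the other receptors, 5 of 8 were tested and 1 passed (median log2 fold change 0.04). Ptger3, the EP3 receptor for prostaglandin E2, which adipocytes express strongly, was at 0.316, 0.105 and 0.295 CPM in CAAHR replicates 31, 34 and 36 and 2.22, 0.481 and 1.21 CPM in GFP replicates 42, 43 and 46 (-2.45 ± 0.60, adjusted p = 0.0445). The call was kept without GFP replicate 43 and lost without any 1 of the other 5 libraries, with an adjusted p of 0.0626 or more. It was also lost with limma-voom (-2.07 ± 0.80, adjusted p = 0.153) and with the slow-fibre covariate (-3.09 ± 1.40, adjusted p = 0.305). The 8 adipocyte markers summed to 259, 129 and 220 CPM in GFP replicates 42, 43 and 46, the same order as Ptger3, and to 154, 108 and 175 CPM in CAAHR, so the groups overlapped. The largest part of each sum was Fabp4, at 104 ± 18.6 CPM in CAAHR and 106 ± 30.5 CPM in GFP. Of the 8 markers, 7 had a negative log2 fold change (median -2.04), and for 4 every CAAHR library was under every GFP library. The markers that passed as lower were 3 (Cfd, Plin1 and Retn), where 4.57% of all tested genes did, and none was at 0. Single markers differed in their order among the GFP libraries, with Adipoq highest in replicate 42 and Cfd in replicate 46. The part of these cells in the Ptger3 value was not tested. Ptger2, the EP2 receptor, had 2 to 7 counts per library, the prostaglandin D2 receptors Ptgdr2 and Ptgdr had 3 to 6 and 0 to 2, and these 3 genes were too scarce to test.

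Of the 5 genes of prostanoid transport and breakdown, all tested, 2 were higher in CAAHR (median log2 fold change -0.01). Abcc4, an efflux pump that carries prostaglandins out of cells, was at 22.0, 23.4 and 22.9 CPM in CAAHR and 15.3, 17.1 and 13.2 CPM in GFP (0.59 ± 0.11, adjusted p = 0.0144), and its call was lost without CAAHR replicate 36 (adjusted p = 0.0550). Ptgr2, a reductase of 15-keto prostaglandins, which are the products of HPGD, was at 88.8, 68.2 and 81.1 CPM in CAAHR and 54.6, 60.8 and 60.0 CPM in GFP (0.44 ± 0.11, adjusted p = 0.0454). The Ptgr2 call was kept only without CAAHR replicate 34, and without any 1 of the other 5 libraries its adjusted p was between 0.105 and 0.143. It also lost its call under upper quartile scaling (adjusted p = 0.0769) and with the slow-fibre covariate, which took its log2 fold change to 0.06 (adjusted p = 0.886). Zadh2, a reductase of the same products, was at 43.1 ± 6.15 CPM and 43.3 ± 2.33 CPM.

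On the lipoxygenase branch, which turns arachidonic acid into leukotrienes and hydroxy acids, 8 of 15 genes were tested and 2 were lower in CAAHR (median log2 fold change -0.86). Alox5ap, the protein that presents arachidonic acid to 5-lipoxygenase in myeloid cells, was at 1.27, 1.21 and 1.74 CPM in CAAHR and 2.28, 3.12 and 3.36 CPM in GFP (-1.05 ± 0.23, adjusted p = 0.0257). Its call was lost without CAAHR replicate 31 (adjusted p = 0.0867), GFP replicate 43 (0.0807) or GFP replicate 46 (0.102). Alox12b, a lipoxygenase known from skin, was at 0.0198, 0.0700 and 0.0492 CPM in CAAHR and 0.580, 0.409 and 0.529 CPM in GFP (-3.36 ± 0.49, adjusted p = 0.00410), from 1, 4 and 3 counts against 28, 17 and 28 counts. It was called without each library in turn, but not with the slow-fibre covariate (-2.59, adjusted p = 0.205). Ephx2, the soluble epoxide hydrolase, was the most abundant gene of this list, at 30.4 ± 11.1 CPM and 21.0 ± 4.11 CPM, and did not pass.

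**Figure D3:**
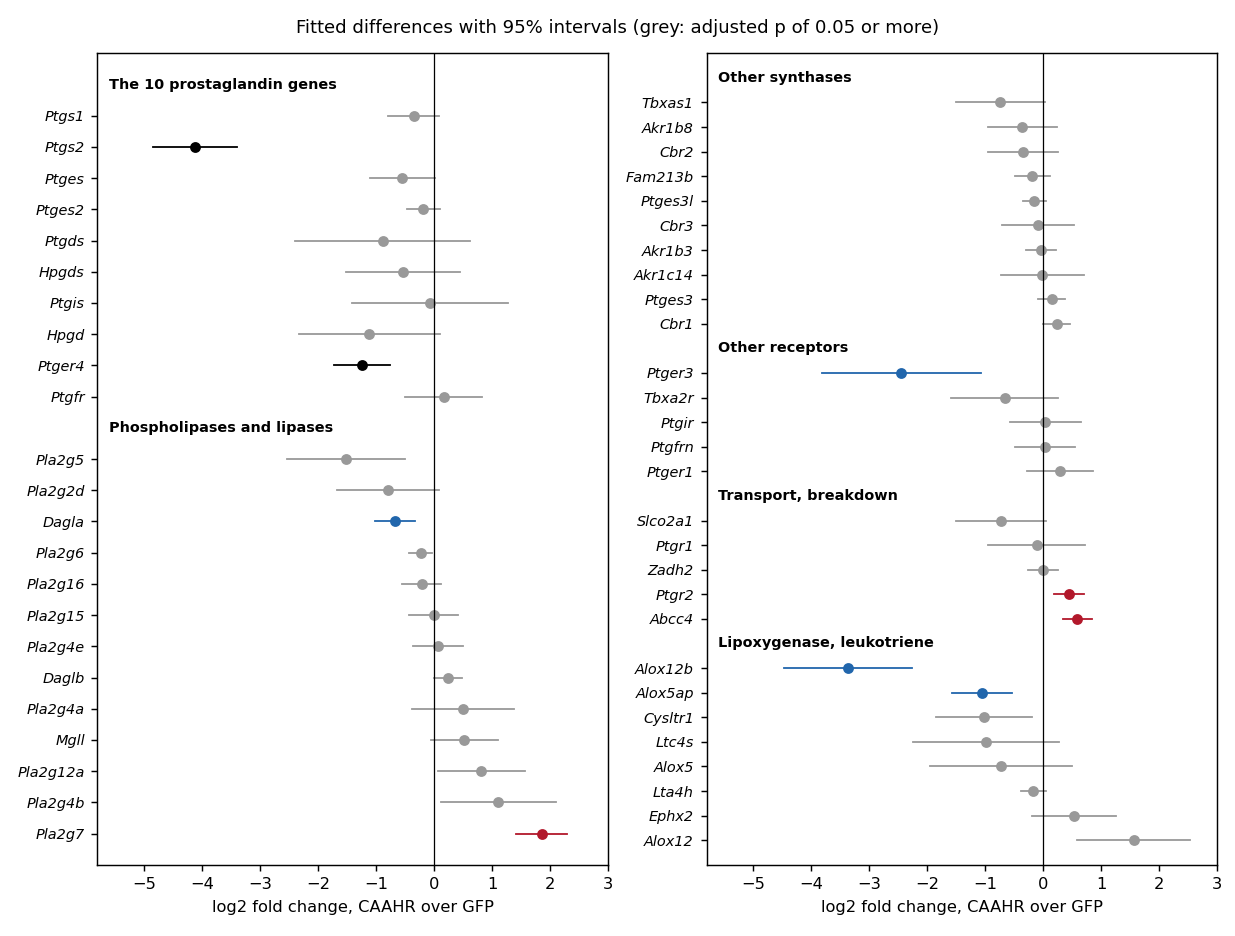
Points are log2 fold changes, CAAHR over GFP, with 95% intervals for the 10 prostaglandin genes and the 41 tested genes of 5 other eicosanoid lists. Black marks members and coloured points other genes with an adjusted p under 0.05 (blue lower, red higher), and grey marks the rest. Ptgs2 at -4.12 lies farthest from 0, followed on the negative side by Alox12b at -3.36 and Ptger3 at -2.45, and Pla2g7 at 1.85 is the highest.

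Ptgs2 is induced by inflammatory cytokines and, like immediate-early genes, by acute stimuli, so genes of both kinds were set beside it. Of 11 genes of cytokine signalling and its factors known to induce Ptgs2, 9 were tested and 3 were lower in CAAHR, where 4.57% of all tested genes were, with a median log2 fold change of -0.34. The interleukin gene Il1b was at 0.257, 0.350 and 0.344 CPM in CAAHR and 1.10, 2.57 and 4.19 CPM in GFP (-3.03 ± 0.48, adjusted p = 0.00851). Il6 was at 0.0593, 0.123 and 0.131 CPM against 0.870, 1.30 and 1.38 CPM (-3.45 ± 0.40, adjusted p = 0.00134), and Il1r1, the signalling receptor of interleukin 1, at 5.42, 4.24 and 3.84 CPM against 12.6, 13.4 and 12.2 CPM (-1.50 ± 0.15, adjusted p = 0.000640). The 3 genes were called without each library in turn and their groups did not overlap. Il1b lost its call with limma-voom (adjusted p = 0.0557) and with the slow-fibre covariate (adjusted p = 0.0745), while Il6 and Il1r1 were called under each alternative in which they were tested. The other 6 tested genes, the factors Rela, Nfkb1 and Cebpb among them, did not pass.

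Of 16 immediate-early genes, all tested, 4 were lower in CAAHR, where 4.57% of all tested genes were, with a median log2 fold change of -1.18. The groups did not overlap, with CAAHR the lower, for 9 of the 16, against the 14.9% of all tested genes. The 4 genes that passed an adjusted p of 0.05 were Egr2 (-1.42 ± 0.21, adjusted p = 0.00410), Myc (-1.26 ± 0.22, adjusted p = 0.0111), Egr3 (-1.32 ± 0.31, adjusted p = 0.0327) and Zfp36 (-1.09 ± 0.24, adjusted p = 0.0355), which makes a protein that destabilises AU-rich messenger RNAs. Without 1 library, Egr2 was called in 6 of 6 fits, Myc in 5 (lost without CAAHR replicate 36, adjusted p = 0.0526), and Egr3 and Zfp36 in 1, that without CAAHR replicate 34. With the slow-fibre covariate none of the 4 passed, at log2 fold changes of -0.97 for Egr2, -0.64 for Myc, -0.55 for Egr3 and -0.41 for Zfp36 (adjusted p from 0.192 to 0.638). In CAAHR replicate 34 Fos was at 285 CPM, Dusp1 at 255 CPM and Jun at 347 CPM, each above every GFP library, and in CAAHR replicates 31 and 36 Fos was at 14.1 and 27.3 CPM (these 3 genes were named after their values were seen). Other genes of the list, also named after their values were seen, stayed under every GFP library in CAAHR replicate 34, such as Egr1 at 102 CPM against 186 to 213 CPM and Fosb at 24.7 CPM against 51.0 to 62.2 CPM. Ptgs2, at 0.298 CPM in CAAHR replicate 34, lay between its values in the other CAAHR libraries.

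**Figure D4:**
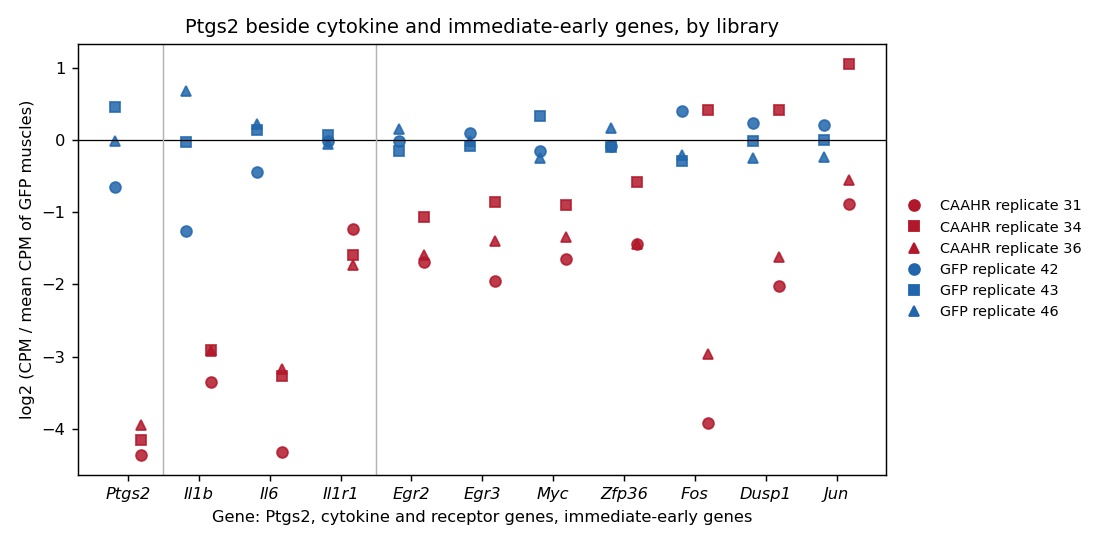
The vertical axis is the log2 ratio of each library's CPM to the mean CPM of the GFP muscles, for Ptgs2, 3 cytokine signalling genes and 7 immediate-early genes, with CAAHR in red and GFP in blue. In CAAHR replicate 34 (red squares) Fos, Dusp1 and Jun lie above 0, at 285, 255 and 347 CPM, and Ptgs2, the cytokine signalling genes and the other 4 immediate-early genes lie below 0.

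Several cell types of muscle and blood express members of the set, and their markers were compared by library. In CAAHR the 8 neutrophil markers summed to 2.33 to 3.30 CPM, against 7.05 to 17.0 CPM in GFP, and 4 of the 5 tested were lower (S100a8, S100a9, Csf3r and Retnlg), where 4.57% of all tested genes were, while Elane was at 0 in every library and Mpo and Ly6g had at most 3 counts. The 8 B and plasma cell markers summed to 9.65 to 19.5 CPM against 128 to 432 CPM, with 4 of 8 lower (Ighm, Mzb1, Cd79a and Cd79b) and none at 0.

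The 8 macrophage markers summed to 21.8 to 37.9 CPM against 45.2 to 92.2 CPM. Although the groups did not overlap, 0 of the 7 tested passed. An unadjusted p under 0.05 was reached by 5 of the 7, and by 3781 of all 15847 genes tested. The 8 mast cell markers summed to 2.87 to 2.99 CPM against 4.01 to 8.04 CPM, with 1 of 6 tested lower (Hdc) and Ms4a2 at 3 counts or fewer. The 8 T and NK cell markers summed to 1.15 to 1.61 CPM against 2.55 to 8.68 CPM, with 1 of 2 tested lower. Within GFP the B and plasma cell, macrophage, and T and NK cell sums had the order of Ptgs2, highest in replicate 43 and lowest in replicate 42, and the neutrophil and mast cell sums did not, both being highest in replicate 46. The part of immune cells in the values of Ptgs2 and Ptger4 was not tested.

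Markers of the vessel wall and of fibroblasts, other cells that make prostanoids, overlapped between the groups. The 8 endothelial markers summed to 199 to 279 CPM in CAAHR and 210 to 262 CPM in GFP, the 8 pericyte and smooth muscle markers to 541 to 734 CPM and 564 to 625 CPM, and the 8 fibroblast markers to 386 to 753 CPM and 576 to 713 CPM. Of these 3 lists 0 genes passed, and in each 1 gene had an unadjusted p under 0.05. With the slow-fibre score as a covariate, the log2 fold change was -4.52 ± 0.66 for Ptgs2 and -1.44 ± 0.41 for Ptger4. These values are from the libraries around which the genes were chosen. The covariate moved several other members, Ptgis to -2.60 ± 0.65, Ptgds to -2.32 ± 1.37 and Hpgds to -2.18 ± 0.81. Ptges moved to -1.21 ± 0.44, Ptges2 to -0.58 ± 0.20 and Ptgfr to -0.55 ± 0.56, a change of sign for the last. In this fit Ptgs2 was called, and Ptger4 and these other members were not, where 436 of all 15847 genes tested were called. The score did not overlap between the groups, and the SEs were larger than without it.

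**Figure D5:**
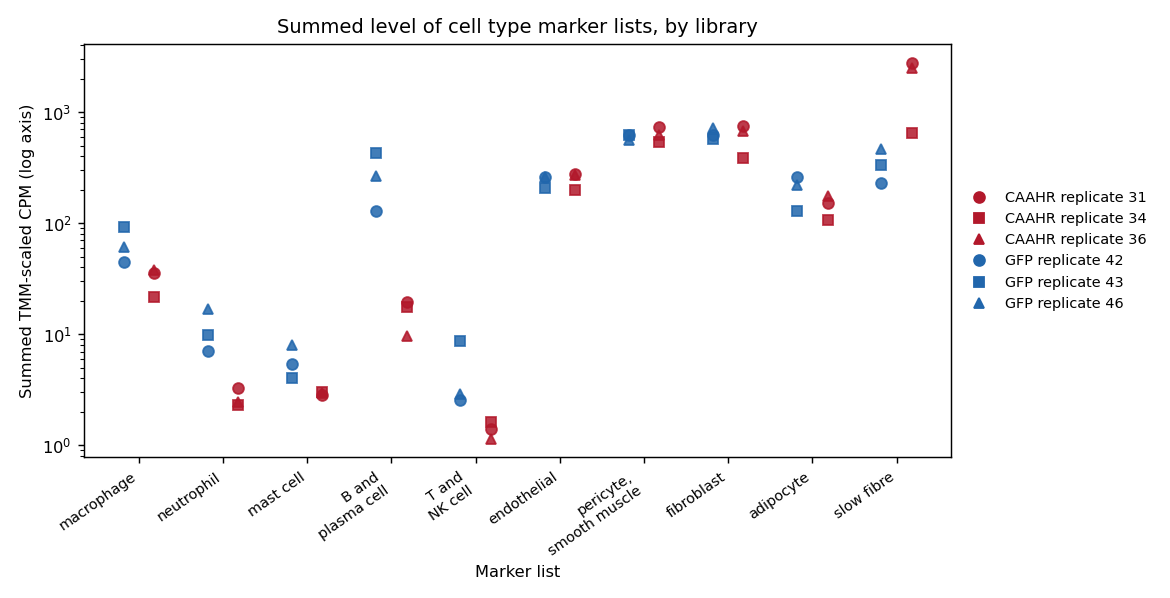
Points give the summed TMM-scaled CPM (log axis) of 10 cell type marker lists in each library, GFP in blue and CAAHR in red. The B and plasma cell sum is 128 to 432 CPM in GFP and 9.65 to 19.5 CPM in CAAHR, whereas the endothelial, pericyte and smooth muscle, and fibroblast sums overlap.

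The genes whose levels followed Ptgs2 most closely over the 6 libraries were Sel1l3 (Pearson's r of log2 CPM 0.998), Igkv4-55 (0.997), Pou2af1 (0.997), Rasd1 (0.996) and Tox (0.994). Sel1l3 was at 44.8, 46.1 and 45.5 CPM in CAAHR and 60.0, 67.1 and 64.2 CPM in GFP, and Pou2af1, a B cell transcriptional coactivator, at 0.0593, 0.0525 and 0.0984 CPM against 1.20, 3.56 and 2.64 CPM. Igkv4-55, an immunoglobulin light chain segment, had no count in CAAHR and was at 1.14 to 2.45 CPM in GFP, although reads of such segments can be shared between near-identical copies. Of 15846 genes compared, 291 had an r over 0.95, and with 2 groups of 3 libraries most of such an r is the difference between the groups, so it is given as a description only.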

How the data were processed

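Poly(A)-selected RNA from 6 gastrocnemius muscles was sequenced as paired ends by the authors. They used Trimmomatic 0.36 for trimming and STAR 2.5.2b for alignment to GRCm38 (versions as in the submitters' processing notes), and unique reads in exons were summed per gene with featureCounts. The deposited values are unnormalised whole-number counts for 49315 genes (174 rows without a symbol), not pooled over replicates. Per the study's methods, strand was used in counting where the library kept it, and whether these libraries did was not given in the sources used here. Total counts were 43432994 to 58825752 per library, and chi-square per degree of freedom within groups was at least 23.7, so no library repeated another. The study's group size was 3 mice per group. Beyond the titles nothing ties a library to an animal, so p-values measure the spread between these samples.

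The fit over all genes was made with edgeR 4.0.16 under R 4.3.3 (filterByExpr, 15847 genes, TMM, robust quasi-likelihood test, Benjamini-Hochberg adjustment over all tested genes, threshold 0.05). Standard errors came from the F statistic. CPM were TMM-scaled, and CPM per kilobase used the union of exons in GENCODE M21 on GRCm38, which held 99.3% of the genes. Calculations were tested on simulated data. The 10 genes, the other gene lists, the marker lists and the tests were chosen with earlier results of these data known. Named were the 10 genes, every gene of the 5 other eicosanoid lists with an adjusted p under 0.05 and the 10 most abundant of the rest, genes of the cytokine and immediate-early lists with an adjusted p under 0.05, the 5 genes most correlated with Ptgs2 (log2 CPM, prior count 2), and Ahr and Cyp1a1. Alternatives were other scalings, filters and tests (DESeq2 1.42.0, which the study used, and limma 3.58.1 voom), a slow-fibre covariate and leaving out each library.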

Additional observations from a re-analysis of the deposited data

How the results depend on the processing

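No paired analysis was possible because CAAHR replicates 31, 34 and 36 and GFP replicates 42, 43 and 46 have no number in common. The number of genes called among all tested was 1205 (481 higher, 724 lower), 2470 without the filter on low counts, 1923 with the DESeq2 Wald test and 436 with the slow-fibre covariate. Leaving out 1 library gave 535 (without CAAHR replicate 36) to 1698 (without CAAHR replicate 34). The split of calls was 358 higher and 990 lower under upper quartile scaling, and 876 higher and 600 lower with library size only. Of the 10 prostaglandin genes, 2 were called, 1 with the slow-fibre covariate (Ptgs2), 3 without the filter (Hpgd added), and 2 in each of the other 13 alternatives, leaving out each library included. Over all genes, 1205 of 15847 tested were called in the main fit, 436 of 15847 with the covariate and 2470 of 28661 without the filter. The other alternatives called 535 to 1923, of 14231 to 28642 tested. The member counts come from the contrast around which the genes were chosen, and nothing is read from them. The log2 fold change of Ptgs2 lay between -4.52 and -3.83 over 15 alternatives and that of Ptger4 between -1.44 and -1.10. Of the other eicosanoid genes 7 were called, 11 without the filter, 2 with the slow-fibre covariate (1 of the 7, Pla2g7, and 1 gene not among them), and 3 to 11 when 1 library was left out. Fewer residual degrees of freedom go with leaving out a library and with the covariate, and the cause of the other shifts was not tested. Among the 10 genes, Ptgis (-2.60 to 0.36) and Ptgfr (-0.55 to 0.36) had both signs over the alternatives and were called in none. Reversed signs among the other named genes were of genes called neither before nor after. Adding the slow-fibre covariate gave log2 fold changes of 0.22 for Akr1b3, 0.14 for Fam213b, -0.43 for Pla2g12a, -0.45 for Mgll, 0.38 for Zadh2 and -0.77 for Ephx2. With library size only they were 0.037 for Akr1b3 and 0.072 for Zadh2, which was at 0.0082 without the filter. Pla2g4e was at -0.0038 under upper quartile scaling and -0.046 with limma-voom. When 1 library was left out, Akr1b3 lay between -0.16 and 0.028, Zadh2 between -0.14 and 0.060 and Pla2g4e between -0.22 and 0.20. Depth limits Ptgds and Hpgds most, with 5 to 31 counts per library.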
